A study of Mus musculus with 224 samples.

Results

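The interferon-stimulated genes described here are Ifi27l2a, Ifit1, Ifit3, Irf7, Isg15, Oasl2, Bst2, Ifitm3 and B2m, 9 mouse genes named in a list. A probeset was taken as a member when the platform annotation gave 1 of these symbols alone. This found 9 probesets of 8 genes among 45037 probesets: 1 each for Ifi27l2a, Ifit1, Ifit3, Irf7, Oasl2, Bst2 and Ifitm3, and both 1449289_a_at and 1452428_a_at for B2m. The Isg15 probeset (1431591_s_at) is shared with Gm9706, so its values are given as those of Isg15 and Gm9706 and are not counted among the 9.

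The study measured expression with Affymetrix mouse arrays in the prefrontal cortex (PFC), hippocampus (HPC) and nucleus accumbens (NAC), and in the central amygdala (CeA) and the bed nucleus of stria terminalis (BNST). It asked how chronic intermittent ethanol vapor (CIE) and voluntary ethanol drinking, alone and together, change brain expression in male C57BL/6J mice bought at 10 weeks of age. Each of 4 cycles held 4 days in the chambers at 16 h a day, then 72 h without ethanol. Values are deposited log2 expression, normalized within each region, so a level is compared only within 1 region and 1 probeset; 224 arrays entered.

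CIE Drinking mice inhaled ethanol vapor and had a choice of 15% ethanol or water for 2 h a day on 5 days of each cycle, after 6 weeks of baseline drinking. CIE NonDrinking mice inhaled ethanol and had water only. Air Drinking mice had the drinking sessions and baseline with air in the chambers, and Air NonDrinking mice had neither vapor nor drinking. By the study's account, at sacrifice drinking mice had been without ethanol for hours and CIE NonDrinking mice for days. Drinking and time since ethanol therefore cannot be told apart. CIE Drinking mice also drank more than Air Drinking mice in the later cycles, so vapor and intake cannot be told apart between these groups. Both CIE groups were injected with 1.6 g/kg ethanol before vapor, and all 4 groups received 1 mmol/kg pyrazole, an alcohol dehydrogenase inhibitor, so the control groups carry the pyrazole, injection and chamber exposure too. CIE Drinking, CIE NonDrinking, Air Drinking and Air NonDrinking had 12, 12, 11 and 12 arrays in PFC. In NAC they had 11, 12, 12 and 12, and in HPC 12, 11, 11 and 8. BNST had 12, 11, 12 and 10 arrays in the same order, and CeA had 12, 11, 12 and 8.

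Interferons bind cell surface receptors whose kinases activate transcription factors in the cytoplasm. These enter the nucleus and bind the interferon-stimulated response element (core GAAANNGAAA) or the gamma-activated sequence (TTCNNNGAA) in promoters, which switches on antiviral genes. In brain, microglia, astrocytes, endothelial cells and neurons can all respond, and resident or infiltrating T cells are 1 source of interferon gamma.

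The promoters show how directly the members carry the letters of these elements. RefSeq promoters of 300 bases (250 before to 50 after the gene start, GRCm38.p6) were matched for 8 of the 9 listed genes, without Ifi27l2a. GAAANNGAAA, searched on both strands (TTTCNNTTTC on the other), occurred in 6 of the 8: Ifit1, Ifit3, Isg15, Bst2, Ifitm3 and B2m, against 3.44% of 32851 promoters. Neighbouring matches overlap in Isg15 and Bst2. It was not in these windows of Irf7 and Oasl2. TTCNNNGAA, which reads the same on both strands, occurred in 2 of the 8 (Bst2 and Ifitm3), against 8.30% of all promoters. A match is a run of letters and not a measured binding site. Promoters of the Ifit pair, whose levels went together most closely, and of Bst2, B2m and Oasl2, whose values the results below turn on, are printed 5′ to 3′ with GAAANNGAAA matches in capitals. Ifit3 (chr19:34583279-34583578, plus strand), Ifit1 (chr19:34640639-34640938, plus strand), Bst2 (chr8:71537423-71537722, minus strand) and B2m (chr2:122147437-122147736, plus strand) hold matches, and Oasl2 (chr5:114896684-114896983, plus strand) holds none.
Ifit3: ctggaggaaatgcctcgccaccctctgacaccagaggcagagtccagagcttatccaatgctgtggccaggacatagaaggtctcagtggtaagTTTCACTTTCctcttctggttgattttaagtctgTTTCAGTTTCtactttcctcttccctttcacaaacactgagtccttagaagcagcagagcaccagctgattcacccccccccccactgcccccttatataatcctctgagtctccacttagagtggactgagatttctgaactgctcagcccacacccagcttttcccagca
Ifit1: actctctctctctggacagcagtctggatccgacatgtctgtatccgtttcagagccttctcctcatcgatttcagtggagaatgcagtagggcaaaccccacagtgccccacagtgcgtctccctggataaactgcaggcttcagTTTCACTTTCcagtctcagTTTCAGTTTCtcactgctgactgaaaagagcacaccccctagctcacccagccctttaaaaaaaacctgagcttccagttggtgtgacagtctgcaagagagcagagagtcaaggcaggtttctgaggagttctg
Bst2: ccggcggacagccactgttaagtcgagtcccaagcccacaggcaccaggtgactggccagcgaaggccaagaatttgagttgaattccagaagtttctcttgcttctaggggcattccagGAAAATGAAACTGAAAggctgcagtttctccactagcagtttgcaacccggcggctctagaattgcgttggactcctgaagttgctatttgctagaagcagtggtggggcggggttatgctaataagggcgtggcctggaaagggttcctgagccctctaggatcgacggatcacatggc
B2m: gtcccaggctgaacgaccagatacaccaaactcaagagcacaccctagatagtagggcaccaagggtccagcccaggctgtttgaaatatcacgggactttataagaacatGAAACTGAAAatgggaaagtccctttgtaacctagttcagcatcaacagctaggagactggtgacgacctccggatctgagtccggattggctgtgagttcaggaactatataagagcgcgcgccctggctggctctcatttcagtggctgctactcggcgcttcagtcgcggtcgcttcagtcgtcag
Oasl2: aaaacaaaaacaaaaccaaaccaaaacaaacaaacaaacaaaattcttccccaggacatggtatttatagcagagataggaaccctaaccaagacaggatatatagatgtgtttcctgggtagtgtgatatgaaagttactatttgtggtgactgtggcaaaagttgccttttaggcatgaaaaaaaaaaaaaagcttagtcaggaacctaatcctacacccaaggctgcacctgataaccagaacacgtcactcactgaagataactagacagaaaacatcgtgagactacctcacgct

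Several arrays stand apart and bear on the results. Summed choroid plexus marker levels lay between 13.85 and 16.39 (log2) in CeA arrays and between 8.31 and 13.17 in the other 4 regions, each region on its own normalization. In HPC, the Air NonDrinking arrays of mice 45 and 55 were high across members: Ifit3 was 9.03 and 8.79 there, against 7.37 to 8.02 in the other 6 arrays of the group. In BNST, the CIE NonDrinking array of mouse 39 had Ifit3 at 10.32, against 8.26 to 9.33 in the other 10. The summed level of neuron markers was between 15.14 and 16.03 in every array of every region.

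In PFC, Ifi27l2a and Oasl2 were higher in CIE Drinking than in Air Drinking mice, and the difference was larger for Ifi27l2a. Ifi27l2a encodes a small interferon-induced membrane protein found in mitochondria and the nuclear envelope. Its log2 level in CIE Drinking PFC had a lowest, median and highest value of 5.65, 6.54 and 6.75, against 5.04, 5.62 and 6.27 in Air Drinking PFC. CIE NonDrinking PFC had 5.45, 5.81 and 6.31, and Air NonDrinking PFC had 5.27, 6.14 and 6.65. CIE Drinking mice were high as a group and Air Drinking mice low, with partial overlap: 9 of 12 CIE Drinking arrays lay above every Air Drinking array. The means were 6.42 ± 0.33 in CIE Drinking (SD, n = 12) and 5.57 ± 0.37 in Air Drinking (SD, n = 11). Ifi27l2a was higher by 0.85 ± 0.15 (log2 fold change ± SE, Comparison 1, CIE Drinking against Air Drinking, LIMMA adjusted p = 0.00029).

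Ifi27l2a also separated CIE Drinking from CIE NonDrinking PFC (Comparison 3), where 7 of 12 CIE Drinking arrays lay above every CIE NonDrinking array. The difference was 0.60 ± 0.14 (LIMMA adjusted p = 0.0070), a call lost in 12 of the 47 fits that left out 1 PFC array. With vapor but no drinking (Comparison 2, CIE NonDrinking against Air NonDrinking), the mean was 5.82 ± 0.25 in CIE NonDrinking PFC and 6.00 ± 0.47 in Air NonDrinking PFC (SD, n = 12 each). The interaction, which is Comparison 1 minus Comparison 2, was 1.03 ± 0.20 (LIMMA adjusted p = 0.0011). Among all probesets 2.92% were called for the interaction, where Ifi27l2a was the 1 member called, and 1.87% in Comparison 3, where it was again the 1 member called. No member was called in Comparison 2 (background 1.26%), Comparison 4 (CIE Drinking against Air NonDrinking, 0.722%) or Comparison 5 (CIE NonDrinking against Air Drinking, 1.69%), nor for vapor (0.915%) or drinking (1.35%) over both levels of the other. Against Air NonDrinking PFC, the Ifi27l2a log2 fold change was 0.42 in CIE Drinking (Comparison 4) and −0.43 in Air Drinking (Comparison 6), neither of them called. The difference in Comparison 1 thus holds both a higher CIE Drinking mean and a lower Air Drinking mean.

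Oasl2, a relative of the oligoadenylate synthetases that sense viral double-stranded RNA, gave the other call of Comparison 1. Its lowest, median and highest levels were 3.69, 3.92 and 4.81 in CIE Drinking PFC, against 3.14, 3.65 and 4.33 in Air Drinking PFC. All 12 CIE Drinking arrays lay above the Air Drinking median, but the groups overlapped and only 1 array exceeded every Air Drinking array. The difference was 0.44 ± 0.10 (LIMMA adjusted p = 0.0069). Oasl2 is a dim probeset, with 17.0% of PFC probesets dimmer than it (48.4% for Ifi27l2a), so a filter on dim probesets removes both from the test. The call was lost when only these 2 groups were fitted (adjusted p = 0.026) and in 10 of the 47 fits that left out 1 PFC array.

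Of the 9 member probesets, 2 were called higher in Comparison 1, in which 0.806% of all probesets were called higher and 1.87% in either direction. All 9 log2 fold changes were above 0, with a median of 0.25 beside −0.01 over all probesets. Ifitm3, which hinders fusion of virus with endosomal membranes, fell just outside the threshold. It had 7.99, 8.34 and 8.69 in CIE Drinking PFC and 7.57, 7.93 and 8.53 in Air Drinking PFC (lowest, median, highest). All 12 CIE Drinking arrays were above the Air Drinking median, though the groups overlapped. Its difference was 0.41 ± 0.10 (LIMMA adjusted p = 0.013).

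B2m encodes the light chain shared by all MHC class I molecules. Probeset 1452428_a_at had 11.38, 11.73 and 12.00 in CIE Drinking PFC and 10.96, 11.38 and 11.96 in Air Drinking PFC, groups that overlapped over most of their range. Its difference was 0.31 ± 0.10 (LIMMA adjusted p = 0.044), and that of 1449289_a_at was 0.25 ± 0.09 (LIMMA adjusted p = 0.086). Both probesets were above 0 and neither was called.

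The RNA-binding Ifit proteins and the transcription factor Irf7, which amplifies interferon production, were not called in Comparison 1. Ifit3 ran between 7.70 and 8.72 in CIE Drinking PFC (median 7.96) and between 7.43 and 8.34 in Air Drinking PFC (median 7.85), with a log2 fold change of 0.15 (LIMMA adjusted p = 0.41). Ifit1 medians were 6.03 in CIE Drinking and 6.12 in Air Drinking, with a log2 fold change of 0.02 (LIMMA adjusted p = 0.94). Irf7 medians were 5.41 in CIE Drinking and 5.29 in Air Drinking, with a log2 fold change of 0.13 (LIMMA adjusted p = 0.25). For these 3 genes the groups overlapped broadly. Isg15 and Gm9706, whose shared probeset reads a ubiquitin-like modifier among others, had medians of 5.57 in CIE Drinking and 5.48 in Air Drinking (LIMMA adjusted p = 0.58).

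Bst2 (tetherin, which holds budding virus at the cell surface) followed another order in PFC. Its highest group was Air NonDrinking, and its 3 ethanol groups had similar medians. The lowest, median and highest levels were 5.52, 5.78 and 6.71 in CIE Drinking PFC. They were 5.44, 5.86 and 6.13 in CIE NonDrinking, 5.42, 5.80 and 6.15 in Air Drinking, and 5.71, 6.12 and 6.54 in Air NonDrinking PFC. In Comparison 6 (Air Drinking against Air NonDrinking), 5 of 11 Air Drinking arrays lay below every Air NonDrinking array. The log2 fold change was −0.34 ± 0.10 (LIMMA adjusted p = 0.038). Over the 9 probesets Comparison 6 had no call, where 1.4% of all probesets were called, although 6 had an unadjusted p under 0.05, as did 24.7% of all probesets. All 9 changes were below 0, with a median of −0.21 and the lowest, −0.43, at Ifi27l2a. Comparisons 1 and 6 share the Air Drinking arrays, so these values are not independent of each other.

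**Figure D1:**
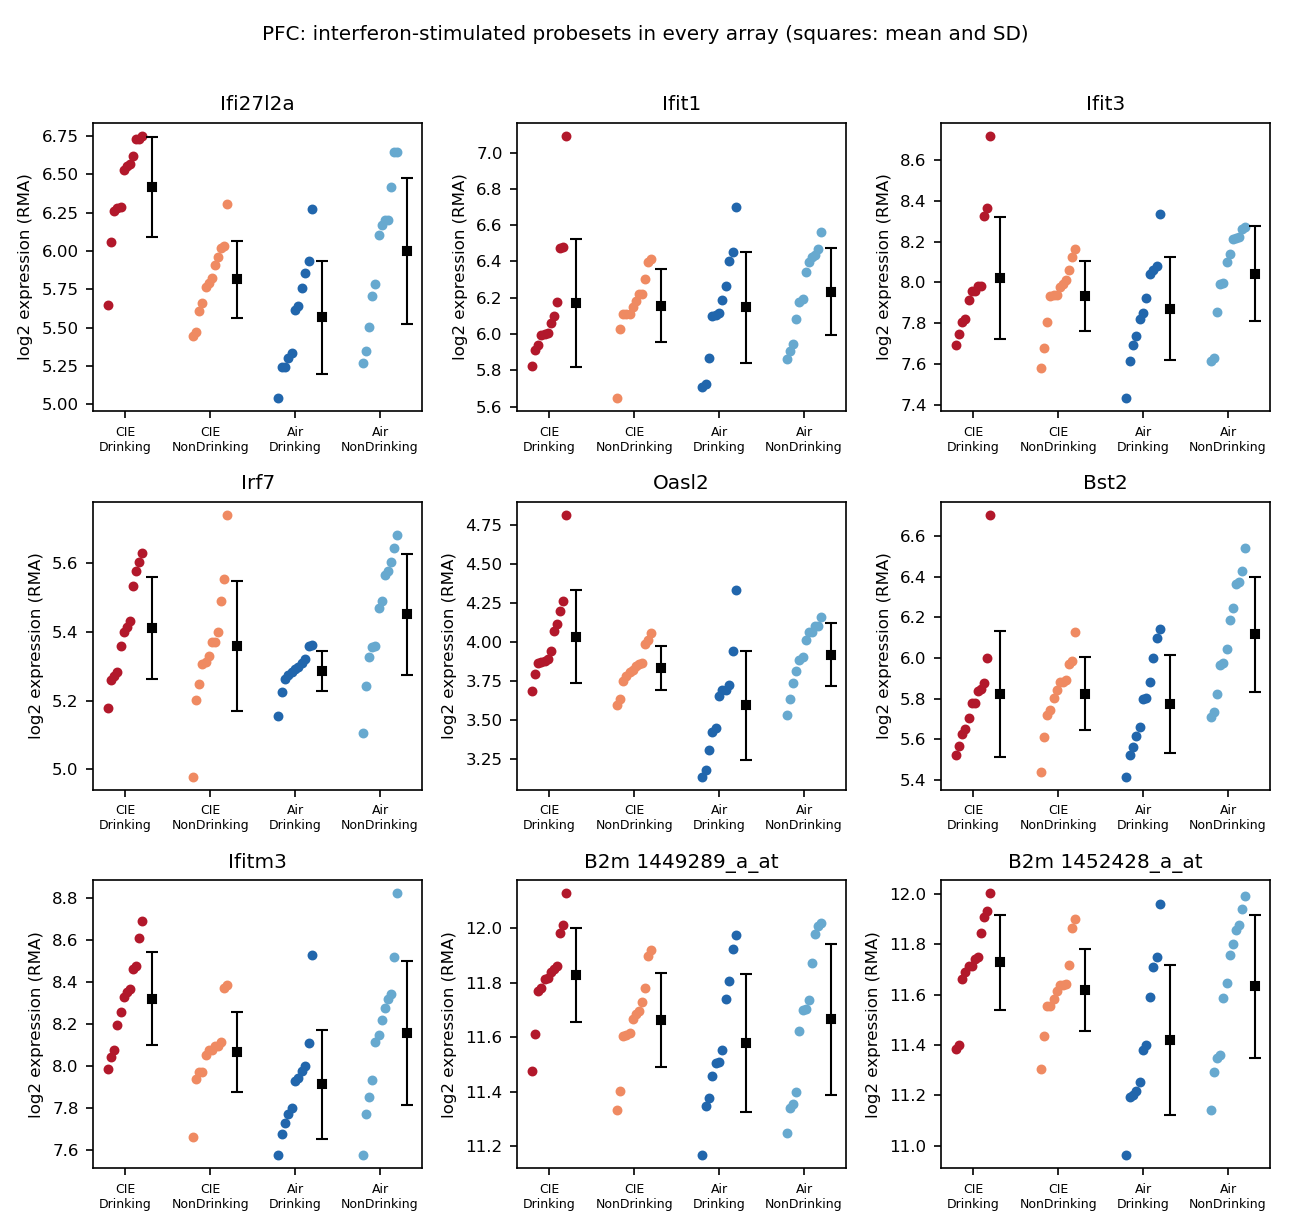
Log2 expression (vertical axis) of the interferon-stimulated probesets in every PFC array, in the CIE Drinking, CIE NonDrinking, Air Drinking and Air NonDrinking groups (horizontal axis), with squares for the mean and bars for the SD. Ifi27l2a shows 9 of 12 CIE Drinking points above every Air Drinking point, while Bst2 has its highest median, 6.12, in Air NonDrinking.

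Cell type markers of the same PFC arrays are set beside these results. The summed T cell marker level (11 genes measured) had a lowest, median and highest value of 8.31, 8.64 and 9.17 in CIE Drinking, against 7.95, 8.29 and 9.09 in Air Drinking. Microglial levels were 12.98, 13.06 and 13.14 in CIE Drinking and 12.88, 12.95 and 13.25 in Air Drinking. Choroid plexus levels were 8.88, 10.70 and 12.80 in CIE Drinking and 8.31, 10.17 and 11.79 in Air Drinking. Astrocyte medians were 14.31 in CIE Drinking and 14.27 in Air Drinking. The medians of these 4 lists were higher in CIE Drinking, with overlapping ranges. Endothelial medians (11.83 in CIE Drinking and 11.87 in Air Drinking) and neuron medians (15.88 in CIE Drinking and 15.92 in Air Drinking) were lower in CIE Drinking, again with overlap. In CIE NonDrinking and Air NonDrinking, T cell medians were 8.46 and 8.64 and choroid plexus medians 9.42 and 10.49. Microglial medians there were 13.05 and 13.07, and astrocyte medians 14.28 and 14.26. Endothelial medians there were 11.83 and 11.82, and neuron medians 15.90 and 15.86. Over the 4 groups, T cell medians were thus lowest in Air Drinking and choroid plexus medians lowest in CIE NonDrinking. Within groups, Ifi27l2a correlated with the mean log2 level of the T cell markers over 47 arrays (r = 0.59, rho = 0.58, permutation p = 3e-05, adjusted over 270 relations of members and marker lists 0.00028). Without the 2 arrays farthest from the median, r was 0.54. With astrocyte markers r was −0.07 (rho = −0.03, permutation p = 0.67). The r with the remaining marker lists was computed too and is not given here, so these values do not show a relation particular to T cells. Ms4a4b, 1 of the 11 T cell markers, had been seen beside Ifi27l2a in an earlier account. The r of Ifi27l2a with the T cell markers is therefore not independent of what was known, and no r without Ms4a4b was computed. In pieces of tissue, more cells of a type and more RNA per cell cannot be told apart, and the part of these cell types in the result was not tested.

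Outside PFC, no member was called in any of the 6 comparisons in NAC, HPC, BNST or CeA. Of all probesets, NAC called 0.282%, 0%, 0.02%, 2.71%, 0.00222% and 0% in Comparisons 1 to 6, and HPC 1.23%, 0%, 0.0832%, 3.63%, 0% and 0%. BNST called 0.943%, 0%, 0.401%, 1.22%, 0% and 0%, and CeA 0.177%, 0%, 1.64%, 1.86%, 0% and 0%. At an unadjusted LIMMA p under 0.05 the 9 members counted 3 in NAC, 0 in HPC, 1 in BNST and 0 in CeA in Comparison 1, where 17.0%, 18.2%, 23.3% and 15.4% of all probesets passed. In CeA 4 members passed in each of Comparisons 2 and 5, beside 9.14% and 7.89% of all probesets.

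The direction of the uncalled members turned in some of these comparisons when single arrays were left out. In HPC Comparison 2, 7 of the 9 members were below 0 (median −0.15), and without mice 45 and 55 all 9 were above 0 (median 0.15). In HPC Comparison 4, 7 were below 0 (median −0.20), and without these mice all 9 were above 0 (median 0.09). The HPC interaction turned as well, with 7 members above 0 (median 0.14) over all arrays and 8 below 0 (median −0.18) without them. In BNST Comparison 2, 6 members were above 0 (median 0.05), and without mouse 39 there were 3 (median −0.03). No member was called with or without these arrays.

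Outside PFC, Ifi27l2a had medians of 6.74 in CIE Drinking NAC and 6.70 in Air Drinking NAC. In HPC it had 5.86 in CIE Drinking and 5.62 in Air Drinking. BNST gave 6.79 in CIE Drinking and 6.83 in Air Drinking, and CeA 7.01 in CIE Drinking and 7.21 in Air Drinking. In each of these regions the groups overlapped over most of their range.

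The lowest adjusted p outside PFC belonged to Irf7 in NAC, in the opposite direction to PFC. Its lowest, median and highest levels were 5.95, 6.25 and 6.37 in CIE Drinking NAC, against 6.14, 6.37 and 6.57 in Air Drinking NAC. CIE Drinking mice were a little lower, with overlap. The log2 fold change was −0.15 ± 0.04 (LIMMA adjusted p = 0.064). Oasl2 in NAC had medians of 4.91 in CIE Drinking and 5.06 in Air Drinking, with a log2 fold change of −0.29 (LIMMA adjusted p = 0.13).

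**Figure D2:**
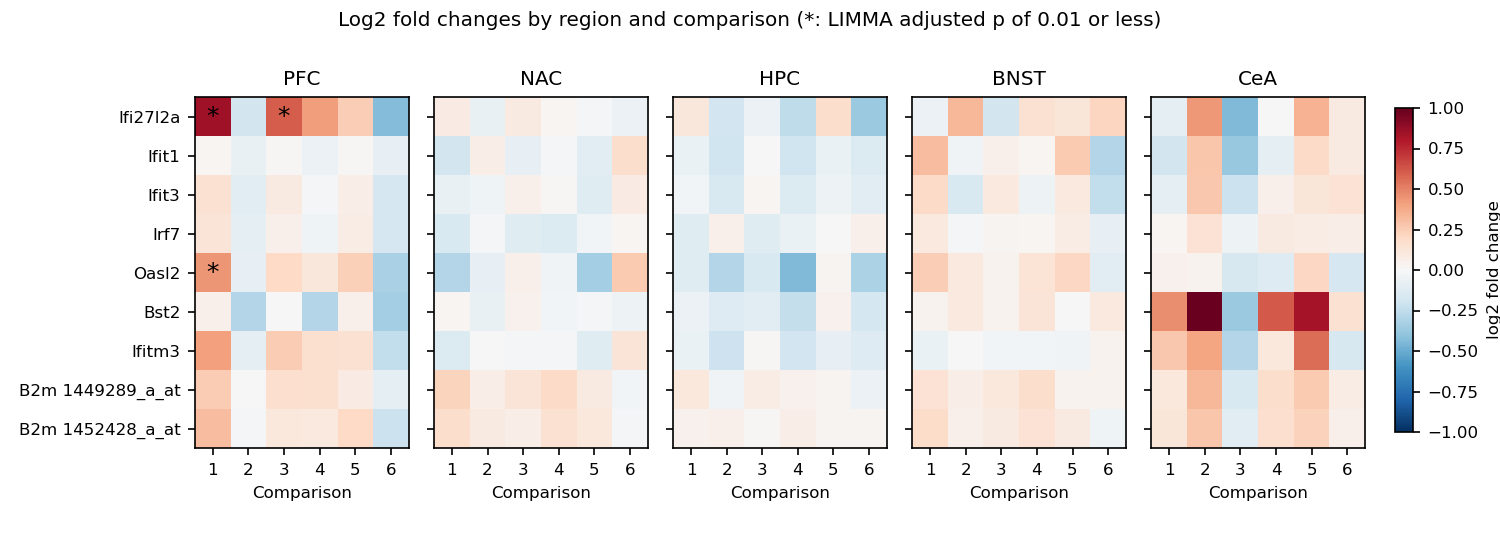
Log2 fold change (colour) of the 9 member probesets (rows) in Comparisons 1 to 6 (columns) in each of the 5 regions, with asterisks at a LIMMA adjusted p of 0.01 or less. The 3 asterisks are in PFC, at Ifi27l2a in Comparisons 1 and 3 and at Oasl2 in Comparison 1.

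A call in PFC and none elsewhere does not show that regions differ, so the difference between the responses was tested over 43893 probesets with a value in every region. For every probeset the fit used 1 residual variance for all regions, and a fit with a variance for each region was not run. The Ifi27l2a difference of CIE Drinking from Air Drinking (Comparison 1) was larger in PFC than in BNST, by 0.91 ± 0.22 (LIMMA adjusted p = 0.0042), and than in CeA, by 0.94 ± 0.22 (LIMMA adjusted p = 0.0020). Its interaction was larger in PFC than in BNST by 1.43 ± 0.32 (LIMMA adjusted p = 0.0019) and than in CeA by 1.56 ± 0.32 (LIMMA adjusted p = 0.00045). It was the 1 member called for PFC against BNST in Comparison 1, beside 2.33% of all probesets (2.03% for the interaction). For PFC against CeA the background was 4.27% in Comparison 1 and 3.65% for the interaction. Comparison 3 differed as well, by 1.04 ± 0.22 for PFC minus CeA (LIMMA adjusted p = 0.0014, background 1.85%). Against NAC and HPC the Ifi27l2a response was larger in PFC by 0.77 and 0.73 in Comparison 1, neither of which passed (LIMMA adjusted p = 0.034 and 0.031, with backgrounds of 0.781% and 2.17%).

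Bst2 was the other member called for a difference between regions over all arrays, in Comparison 2. In CeA the lowest, median and highest levels were 7.62, 8.58 and 10.44 in CIE NonDrinking and 6.53, 7.66 and 9.02 in Air NonDrinking. CIE NonDrinking mice were higher, 10 of 11 above the Air NonDrinking median, with overlap. Within CeA the log2 fold change was 0.98 ± 0.40 (LIMMA adjusted p = 0.54), and in PFC it was −0.29 (LIMMA adjusted p = 0.080). PFC minus CeA gave −1.28 ± 0.28 (LIMMA adjusted p = 0.0019, background 2.55%). This fit uses 1 residual variance for all regions, whereas the within-group SD of Bst2 was 0.88 in CeA and 0.26 in PFC. The SE of the difference, 0.28, is therefore below that of the CeA change alone, 0.40. The call rests on the shared variance, and a fit with a variance for each region was not run. All 9 member probesets were above 0 in CeA in Comparison 2 (median 0.28) with no call, where 0% of probesets were called. At an unadjusted p under 0.05 it had 4 of the 9 members and 9.14% of all probesets.

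CeA arrays fell into a low and a high set by choroid plexus markers (9 genes measured, summed log2 level): 10 arrays were between 13.85 and 14.63 and 33 between 15.35 and 16.39. The low set held 4 CIE Drinking, 1 CIE NonDrinking, 3 Air Drinking and 2 Air NonDrinking arrays. Bst2 ran between 6.39 and 7.62 in the low set (median 6.95) and between 6.97 and 10.44 in the high set (median 8.58). The median of the low set thus lay just below the lowest value of the high set, and the ranges overlapped. Within the 33 high arrays, group means removed, Bst2 correlated with the mean log2 level of the choroid plexus markers (r = 0.62, rho = 0.73, permutation p = 0.00017, adjusted over 18 relations 0.0031). For Ifitm3 r was 0.50 (rho = 0.72, permutation p = 0.0054, adjusted 0.048). Without the 2 farthest arrays r was 0.58 for Bst2 and 0.43 for Ifitm3. Without the 10 low arrays, Bst2 in Comparison 2 was higher by 0.73 ± 0.32 within CeA. PFC minus CeA, again with 1 residual variance for all regions, was −1.02 ± 0.24 (LIMMA adjusted p = 0.0040). In Comparison 4, PFC minus CeA for Bst2 then passed the threshold (−1.16, LIMMA adjusted p = 0.00064), while over all arrays it did not (−0.91, LIMMA adjusted p = 0.028). The Ifi27l2a difference in Comparison 3 then missed the threshold (0.83, LIMMA adjusted p = 0.018), while those in Comparison 1 (0.88, LIMMA adjusted p = 0.0064) and the interaction (1.32, LIMMA adjusted p = 0.0074) passed. Their SE was 0.24 and 0.34 with the shared variance, beside 0.21 and 0.31 for the Ifi27l2a values within CeA alone. The part of choroid plexus tissue in these results was not tested.

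**Figure D3:**
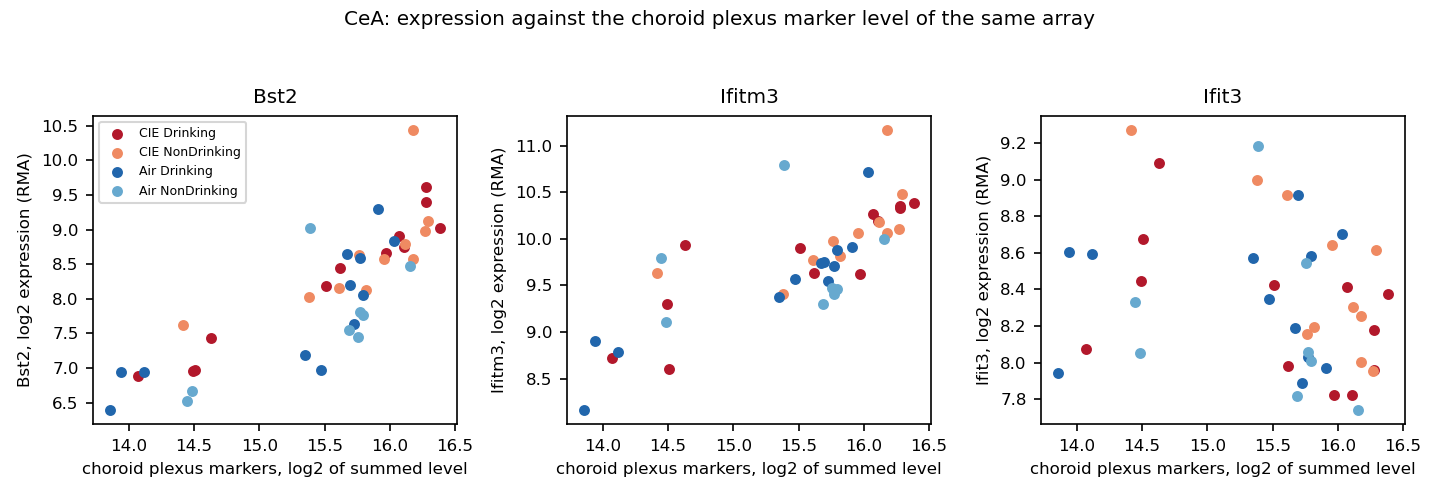
Log2 expression of Bst2, Ifitm3 and Ifit3 (vertical axes, 1 panel each) against the log2 summed level of choroid plexus markers in the same CeA array (horizontal axis), 1 point per array coloured by group. The 10 arrays at the left, between 13.85 and 14.63, include the lowest Bst2 values, and within the 33 at the right Bst2 and Ifitm3 tend to be higher where the markers are higher.

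Members also varied between mice of the same group, and part of this variation was shared among members. Differences in r between regions were not tested. Ifit3 was taken as the index, and r was computed on deviations from group means for the 8 other member probesets in each region, with p adjusted over all probesets. Ifit1, its neighbour on chromosome 19, was closest to Ifit3 among members outside PFC. Its r was 0.95 in HPC (rho = 0.93, 42 arrays), 0.90 in BNST (rho = 0.84, 45 arrays), 0.89 in CeA (rho = 0.87, 43 arrays) and 0.84 in NAC (rho = 0.81, 47 arrays), each with a permutation p of 1e-05, the smallest that 100000 permutations can give. In PFC it was 0.62 (rho = 0.53, 47 arrays, permutation p = 4e-05), just short of the threshold after adjustment over all probesets, which the other 4 values passed. The r without the 2 farthest arrays was 0.94 in HPC, 0.83 in BNST and 0.85 in CeA.

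The number of the 8 that covaried with Ifit3 was 2 in PFC (Oasl2 with r = 0.70 and rho = 0.70, Bst2 with r = 0.69 and rho = 0.64, permutation p = 1e-05 for both, and r of 0.64 and 0.58 without the 2 farthest arrays), where 0.0733% of all probesets did. It was 5 in NAC (background 0.111%), 8 in HPC (0.391%), 8 in BNST (14.6%) and 4 in CeA (4.89%). All called members had a positive r, and the share of all probesets called with a positive r was 6.81% in BNST and 4% in CeA. Leaving out HPC mice 45 and 55 reduced the HPC count to 3 (Ifit1, Ifitm3 and Oasl2, with r of 0.93, 0.72 and 0.71), at a background of 0.16%. Leaving out BNST mouse 39 left 7, without Irf7 (r = 0.33), at a background of 22.5%. In CeA, Bst2 (r = −0.22, rho = −0.26, permutation p = 0.17) and Ifitm3 (r = 0.05, rho = −0.06, permutation p = 0.75) were not past the threshold with Ifit3, while Bst2 and Ifitm3 went with each other (r = 0.84 over 43 arrays, as a description). The median r over the 36 pairs of member probesets was 0.45 in PFC, 0.54 in NAC, 0.71 in HPC, 0.56 in BNST and 0.46 in CeA.

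**Figure D4:**
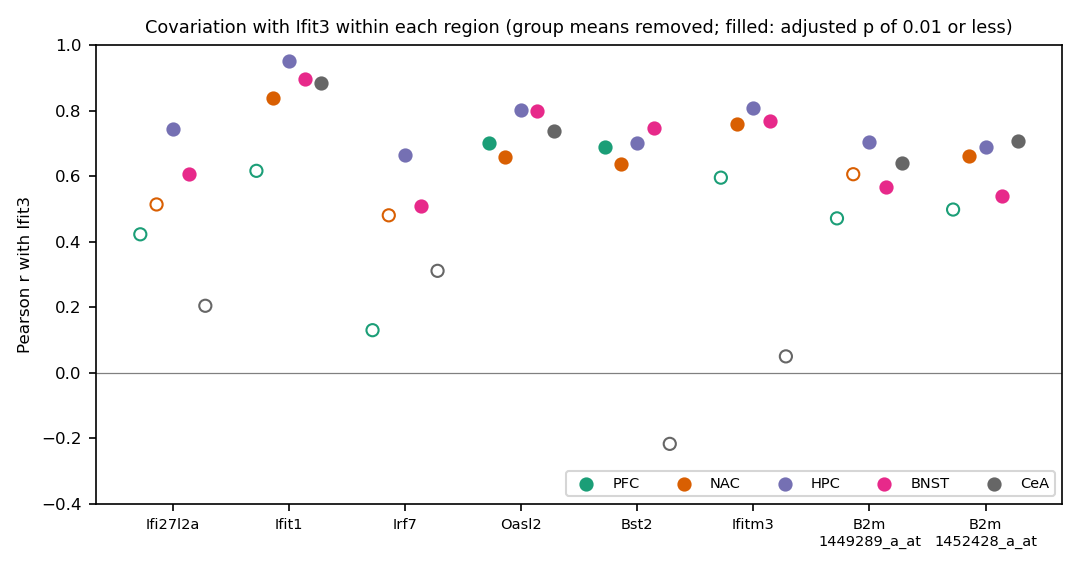
Pearson r with Ifit3 (vertical axis) of the 8 other member probesets (horizontal axis) over the arrays of each region, colour marking the region and filled points an adjusted p of 0.01 or less. Ifit1 lies highest in 4 regions, at 0.84 to 0.95, and Bst2 in CeA lies lowest, at −0.22.

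Among all probesets, the 10 with 1 gene symbol most like Ifit3 in each region included genes outside the 9. In PFC these were led by Rnf213 (r = 0.74), Usp18 (0.73), which removes ISG15 from proteins, and Gbp6 (0.70), a guanylate-binding protein. In NAC Rtp4 (0.85) and Gbp6 (0.84) stood at the top beside the immunity-related GTPases Igtp, Iigp1 and Irgm2. In HPC the first after Ifit1 were Rtp4 (0.93) and Trim30a (0.92), and in BNST Ifih1 (0.89), the cytosolic RNA sensor MDA5, and Usp18 (0.88). In CeA, Rnase4 (0.85), Mpeg1 (0.82), a macrophage perforin-like gene, Klhl6 (0.82) and the class I genes H2-D1 (0.82) and H2-K1 (0.81) followed Ifit1. Cd86 (0.81) and Itgb2 (0.80) were among the 10 in CeA too. These genes were chosen for their r, so their values are a description.

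B2m levels went together across 3 regions of the same mouse. On deviations from group means, 1452428_a_at in NAC and HPC had r = 0.80 over 40 mice (rho = 0.82, permutation p = 1e-05, adjusted over all probesets 6e-06). For NAC and CeA r was 0.77 over 40 mice (rho = 0.75, permutation p = 1e-05, adjusted 6e-05), and for HPC and CeA 0.75 over 38 mice (rho = 0.74, permutation p = 1e-05, adjusted 0.00024). Without the 2 farthest mice r was 0.79, 0.78 and 0.67 for the 3 pairs in that order. The other probeset, 1449289_a_at, had r of 0.72, 0.69 and 0.72, and passed in all 3 pairs too. Mice high for B2m in 1 of these regions were thus high in the others. Both B2m probesets were the 2 of 9 members that passed in each pair, beside 0.353% of all probesets for NAC and HPC, 0.193% for NAC and CeA and 0.214% for HPC and CeA.

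Of the 10 region pairs, the other 7 had no member past the threshold. With BNST the B2m r lay between 0.34 and 0.58, and with PFC between 0.07 and 0.28. Background was 1.13% for NAC and BNST, 0.129% for HPC and BNST, 1.59% for BNST and CeA, 0.00666% for PFC and NAC, and 0% for the other PFC pairs. Ifit3 had r of 0.62 between HPC and CeA (rho = 0.61, adjusted p = 0.0225 over all probesets) and 0.53 between NAC and CeA (rho = 0.46, adjusted p = 0.0875), neither of which passed. Ifit3, the index of covariation within a region, did not pass between regions, although a difference between its r and that of B2m was not tested.

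**Figure D5:**
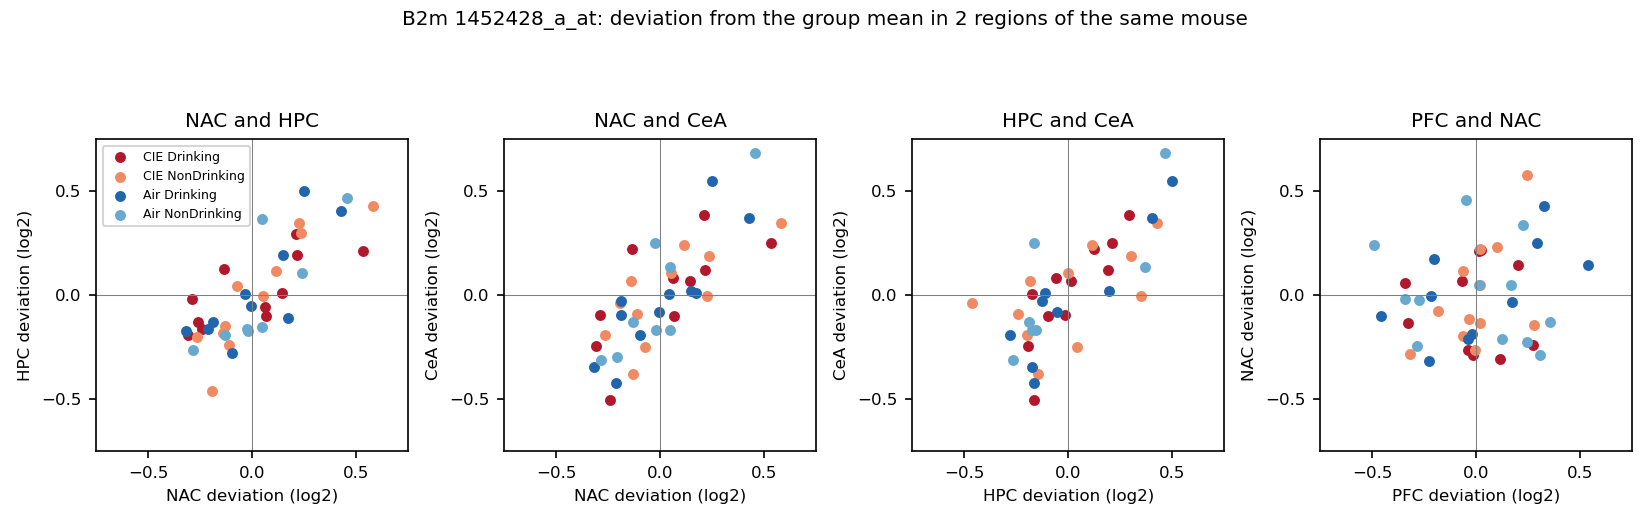
Deviation of B2m (1452428_a_at, log2) from its group mean in 1 region (horizontal axis) against another region of the same mouse (vertical axis), 1 point per mouse coloured by group, for NAC and HPC, NAC and CeA, HPC and CeA, and PFC and NAC. Points follow the diagonal in the first 3 panels, where r is 0.80, 0.77 and 0.75, and scatter in the panel of PFC and NAC.

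Genes of the other lists covaried between these regions, and some of them between BNST and the others too. Of 53 other interferon-stimulated genes, 9 passed for NAC and HPC (Irgm2, Igtp, Psmb9, Gbp2, Iigp1, Psmb8, Ifi47, Irgm1 and Gbp3), 11 for NAC and CeA and 10 for HPC and CeA. Psmb8 and Psmb9 are immunoproteasome subunits, and the Gbp and Irg genes encode interferon-inducible GTPases. Of 12 class I presentation genes, 3 passed for NAC and HPC: the heavy chains H2-D1 and H2-K1 and Nlrc5, the class I transactivator. Of 11 T cell markers, 3 passed for NAC and HPC (the chemokine Ccl5, Ms4a4b and Cd3g), 2 for NAC and CeA and 4 for HPC and CeA. With BNST, where B2m did not pass, 4 T cell markers passed for NAC, 3 for HPC and 4 for CeA, as did 2 class I genes for NAC, 0 for HPC and 1 for CeA. Of the 53 other interferon-stimulated genes, 2 passed with BNST for NAC, 1 for HPC and 3 for CeA. With PFC, Gbp2 passed for NAC (r = 0.74, background 0.00666%), and no gene of these lists passed for the other regions. The highest r of a T cell marker was 0.85 for Ccl5 between NAC and HPC.

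Within regions, B2m also went with the mean log2 level of the T cell markers, group means removed. Its 2 probesets had r of 0.71 and 0.77 in PFC, 0.56 and 0.64 in NAC, 0.81 and 0.81 in HPC, 0.76 and 0.71 in BNST, and 0.80 and 0.85 in CeA. Permutation p lay between 1e-05 and 3e-05, and between 0.00013 and 0.00028 after adjustment over 270 relations. Without the 2 farthest arrays r lay between 0.51 and 0.83. The r of B2m with the other marker lists is not given here, so these values do not show a relation particular to T cells. The part of T cells in the B2m levels was not tested.

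Some other genes of the interferon pathway were called in Comparison 1 in PFC. Of all probesets, 0.806% were called higher there and 1.87% in either direction. None of the 7 ligand genes, 6 receptor genes or 13 nucleic acid sensing genes measured was called. Of 15 signalling genes, Stat2 (0.19 ± 0.05, LIMMA adjusted p = 0.0097) and 1 probeset of Stat3 (0.25 ± 0.04) were called higher. Other Stat3 probesets had 0.13, 0.06 and −0.03. Of 53 other interferon-stimulated genes, 3 were called higher and 35 were above 0, with a median of 0.05 beside −0.01 over all probesets. They were Xaf1 (0.39 ± 0.09, LIMMA adjusted p = 0.0047), Trim21 (0.30 ± 0.07, LIMMA adjusted p = 0.0037), an intracellular antibody receptor, and Parp12 (0.27 ± 0.07, LIMMA adjusted p = 0.0082). A second probeset of Xaf1 had −0.07, and one of Trim21 had 0.08. No class I presentation gene of 12 was called (median 0.10). Signalling genes went both ways in other PFC contrasts. Irf5 was called lower in Comparison 4 (−0.35 ± 0.07, LIMMA adjusted p = 0.0042, background 0.722%). It was also lower for vapor (−0.22 ± 0.05, LIMMA adjusted p = 0.0077, background 0.915%). The same Stat3 probeset was called higher in Comparison 5 (0.16 ± 0.04, background 1.69%) and for vapor (0.14 ± 0.03).

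For the interaction in PFC, 42 of the 53 were above 0 (median 0.10), with 4 called higher and 1 lower, beside 2.92% of all probesets called. Trim21 (0.52 ± 0.09), Xaf1 (0.58 ± 0.12), Cxcl9 (0.47 ± 0.12), a chemokine induced by interferon gamma, and Ifi35 (0.40 ± 0.10) were higher and the ubiquitin ligase Herc6 lower (−0.60 ± 0.13). The signalling genes Stat2 (0.34 ± 0.07) and Stat3 (0.22 ± 0.05) were called higher for the interaction too. So were the markers Ms4a4b (0.89 ± 0.20), Gfap (1.22 ± 0.24) and Calml4 (0.65 ± 0.16). Marker lists in Comparison 1 gave 0 of 14 microglial, 0 of 12 endothelial and 0 of 11 neuronal genes called, beside 1.87% of all probesets. Of 11 T cell markers, Ms4a4b was called (0.87 ± 0.14, LIMMA adjusted p = 0.0002), with 0.05 at its other probeset. Of 10 astrocyte markers, Gfap, an intermediate filament gene, was called (0.89 ± 0.17, LIMMA adjusted p = 0.0012). Of 9 choroid plexus markers, Calml4 was called (0.48 ± 0.11, LIMMA adjusted p = 0.0067) and all 9 were above 0.

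Genes of these lists were also called outside PFC. In Comparison 4, the interferon gamma receptor chain Ifngr2 was higher in NAC (0.45 ± 0.10, LIMMA adjusted p = 0.0020), where 2.71% of all probesets were called. The class I loading chaperone Calr was lower in NAC (−0.20 ± 0.04) and BNST (−0.14 ± 0.03, background 1.22%). Of 14 microglial genes, Itgam was higher in NAC (0.35 ± 0.09) and HPC (0.48 ± 0.11, background 3.63%). So was the fractalkine receptor gene Cx3cr1 (0.23 ± 0.06 in NAC and 0.34 ± 0.08 in HPC), and no other gene of the list was called there. The summed microglial medians in CIE Drinking and Air NonDrinking were close, at 13.78 and 13.74 in NAC and 13.79 and 13.73 in HPC, with overlapping ranges. Of 11 T cell markers, the T cell receptor component Cd3d was higher in BNST in Comparison 1 (0.30 ± 0.06, LIMMA adjusted p = 0.0033, background 0.943%). It was higher there in Comparison 4 too (0.30 ± 0.06, LIMMA adjusted p = 0.0040). For vapor over both levels of drinking, Ms4a4b (0.97 ± 0.19, LIMMA adjusted p = 0.0071) and Cd3d (0.24 ± 0.05, LIMMA adjusted p = 0.0058) were higher in BNST. There 10.3% of all probesets had an unadjusted p under 0.05 for vapor. No interferon-stimulated member was called in BNST in these contrasts.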

How the data were processed

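Expression was measured in 224 Affymetrix arrays of 5 regions from 51 numbered mice: 13 CIE Drinking, 12 CIE NonDrinking, 14 Air Drinking and 12 Air NonDrinking numbers, more in both drinking groups than the 12 mice a group of the methods. That a number marks the same mouse in every region rests on the labels, and the relations between regions rest on it. The deposited values are log2 RMA expression that the authors background-corrected, quantile-normalized by region and adjusted for hybridization batch with ComBat, after removing low-quality arrays; package versions were not given in the sources used here, and batches are not in the labels, so no within-batch value could be had; whether ComBat was told the groups was not given either. Of 45037 probesets, 34945 carried 1 gene symbol, 932 several and 9160 none. Some probesets had no value in a region. The number of arrays limits the precision.

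Each region was fitted with limma 3.58.1 (LIMMA, R 4.3.3) with 1 mean per group, and p-values (two-sided) were adjusted by Benjamini and Hochberg over all probesets of a region and comparison. An adjusted p of 0.01 or less was called. Vapor, drinking and their interaction were fitted from the same arrays. Differences between regions were fitted over all arrays. Covariation used Pearson r and Spearman rho of deviations from group means, with 100000 permutations within groups (Python 3.11.15, numpy 2.4.6). The families held 100 relations between regions, 88 with Ifit3 and 270 with marker lists. The correlation and limma steps were tested on simulated data. All member probesets were named. Genes named from each other list were called in a comparison, mostly the up to 4 with the smallest adjusted p, and not every call was named. From the 10 most like Ifit3 in a region, some of those that led were named. The T cell marker Ms4a4b was chosen for naming beforehand, because it was seen beside Ifi27l2a in an earlier account. A gene with several probesets was represented by the one with the highest mean in the region. Members and lists were chosen with earlier results of these data known. P-values measure the spread between mice of a group.

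Alternatives were a filter on dim probesets, trended variances with robust eBayes, quality weights for arrays, a second quantile normalization, 2-group fits, 1 probeset per gene, leaving out each PFC array, the mouse as a replicate block, Spearman rho and group means kept. Leaving out the stray HPC, BNST and CeA arrays was chosen after seeing the data.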

Additional observations from a re-analysis of the deposited data

Results flagged for a closer look

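One of 27 group distributions of 8 or 10 arrays had a stray array, where chance gives about 1 in 20: B2m 1449289_a_at in BNST Air NonDrinking mice, whose highest array (mouse 50) had a log2 level of 12.40.

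Ifi27l2a responded differently between conditions and regions by tests of the difference itself. In PFC the interaction of vapor and drinking was 1.03. PFC minus BNST was 0.91 in Comparison 1 and 1.43 for the interaction. PFC minus CeA was 0.94 in Comparison 1, 1.04 in Comparison 3 and 1.56 for the interaction. These differences between regions also come from a fit with 1 residual variance for all regions, and a fit with a variance for each region was not run. The Bst2 difference between PFC and CeA in Comparison 2, −1.28, was called in a fit with 1 residual variance for all regions. Its spread in CeA was larger than in PFC, so this call rests on the shared variance. Choroid plexus marker levels of CeA arrays, given with the results, are not equal among groups, and their part in the CeA differences was not tested.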

How the results depend on the processing

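No call changed direction under any alternative run, but uncalled members did: without mice 45 and 55, all 9 members were above 0 in HPC Comparisons 2 and 4, where 7 were below 0 over all arrays. Calls of the 9 probesets over the 6 comparisons in PFC numbered 3, and 1 with dim probesets left out, which removes Oasl2 and Ifi27l2a from the test, and 7 with array quality weights. The call left without dim probesets is Ifitm3 in Comparison 1 (LIMMA adjusted p = 0.0077). Leaving out 1 PFC array gave 1 to 4 calls, 1 each without CIE Drinking mice 2, 3, 6 or 20. For vapor, drinking and the interaction, 1 call in PFC became 0 without dim probesets, 3 with array quality weights, 1 to 3 with 1 array left out, 3 without Air Drinking mouse 31 and 2 without Air NonDrinking mouse 51. Leaving out dim probesets gave 0 calls in place of 1 for PFC minus BNST and 1 in place of 3 for PFC minus CeA. With group means kept, NAC and BNST gave 1 covarying probeset in place of 0, HPC and BNST 1 in place of 0, and Ifit3 in PFC 4 in place of 2. Spearman rho gave 3 in place of 5 with Ifit3 in NAC, and leaving out HPC mice 45 and 55 gave 3 in place of 8. Where no cause is given, the cause was not tested.

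Ifi27l2a kept its LIMMA calls in Comparison 1 and for the interaction in 47 of 47 fits with 1 PFC array left out (adjusted p between 5.4e-05 and 0.00096, and between 0.0003 and 0.0022). Oasl2 in Comparison 1 lost its call in 10 of 47 (CIE Drinking mice 2, 3, 4, 6 and 20 and Air Drinking mice 24, 32, 58, 59 and 62, adjusted p between 0.0012 and 0.020). Ifi27l2a in Comparison 3 lost it in 12 of 47 (CIE Drinking mice 1, 2, 3, 5, 6 and 20 and CIE NonDrinking mice 33, 34, 35, 41, 43 and 44, adjusted p between 0.0024 and 0.016), and with 1 probeset per gene (adjusted p = 0.0107). The mouse numbers come from the labels, and the replicate block over them changed no call: PFC minus BNST for Ifi27l2a in Comparison 1 stayed at 0.91 (LIMMA adjusted p = 0.0036). The block used 1 consensus correlation for all probesets, 0.0146, so its fit could differ little from the fit without it. It does not show what pairing by mouse means for members with a higher r between regions, such as B2m.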
